A study of Arabidopsis thaliana with 3 samples.

Results

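The ATG8 genes of Arabidopsis thaliana were described on 3 Affymetrix arrays of whole seedlings. The family was taken as the 9 loci ATG8A to ATG8I, and a gene was kept where the array's annotation lists a probe set for it alone. This left 6 of the 9 genes, each with 1 probe set, among 3602 genes named in this way. They were ATG8A (AT4G21980), ATG8B (AT4G04620), ATG8C (AT1G62040), ATG8D (AT2G05630), ATG8E (AT2G45170) and ATG8F (AT4G16520). ATG8G (AT3G60640), ATG8H (AT3G06420) and ATG8I (AT3G15580) were not analysed here.

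The groups were the plastid protein import mutant ppi1, labelled as carrying a T-DNA in the Toc33 gene, a line called 75-IV, labelled as carrying a T-DNA in a Toc75 gene, and wild type with no modification. All 3 were of the Col-0 background (stock N1092) at growth stage 1.02, grown on MS medium with 0.5% sucrose under days of 16 h light and nights of 8 h. Line 75-IV appears as ppi3 in the title of the series, and the locus in its label is AT4G09070, while TOC75-IV is AT4G09080 in the RefSeq gene table. Each mutant was 1 insertion line, the number of plants pooled was left blank, and each group had 1 array, so no test was possible and every difference below is one between arrays.

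ATG8 is a small ubiquitin-like protein of autophagy, the process in which a double membrane closes around cytoplasm and delivers it to the vacuole for breakdown. The protease ATG4 trims ATG8 to a terminal glycine, ATG7 activates it and ATG3 passes it on to the lipid phosphatidylethanolamine. Bound to the membrane, it helps the autophagosome to grow and holds receptors that carry cargo. In leaves short of carbon or nitrogen, autophagy also takes up parts of chloroplasts, and Toc33 and Toc75 proteins belong to the translocon that imports proteins into plastids. Plants carry many ATG8 genes, whose products overlap in function, whereas yeast has only one.

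The arrays had nearly equal trimmed mean signals, between 99.988 and 99.989, and ppi1 had 2086, line 75-IV 2007 and wild type 1954 named genes with a signal over 14.9. This value, called the floor, is the 40th percentile of all signals outside the control probe sets. Scanner background was 61.98 in ppi1, 56.59 in line 75-IV and 50.47 in wild type. Outlier cells numbered 504 of 285156 in ppi1, 20 in line 75-IV and 11 in wild type. For the control gene GAPDH, the 3' signal divided by the 5' signal, a value that is low when long transcripts are copied in full, was 1.61 in ppi1, 2.42 in line 75-IV and 18.7 in wild type, and that of ubiquitin was 2.75, 3.51 and 4.16. Where the ATG8 probe sets lie along their transcripts was not given in the sources used here, so the part of these differences in the ATG8 values was not tested. No probe set was listed for TOC33, TOC75-IV or AT4G09070 alone, so the disrupted genes could not be used to check the labels.

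All 6 ATG8 genes were above the floor on each of the 3 arrays, and 2 of them differed by at least 2-fold between their highest and lowest array. They were different genes in the mutants: ATG8F was about halved in the ppi1 array, and ATG8E about halved in the line 75-IV array. Such a range was found in 10.9% of the 1796 genes measured on all 3 arrays, against 2 of 6 in the family. For 4 of the 6, ATG8A, ATG8B, ATG8C and ATG8F, the ppi1 array was the lowest, as it was for 32.3% of those genes. The arrays were also scaled to 9 spike-in control probe sets (spike-in scaling). The ppi1 array was then the lowest for ATG8F alone, 1 of 6, and for 6.72% of 1742 genes. No test was made of how these probe sets relate to seedling RNA. Spike-in scaling is thus an alternative here, not a calibration of RNA levels. The signals of different probe sets are not compared here, because each has its own brightness.

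ATG8F had a signal of 313.2 in ppi1, 674.6 in line 75-IV and 623.2 in wild type. The ppi1 array was low and the other arrays lay close together, with the line 75-IV array the highest. The ppi1 signal was 1.99-fold lower than that of wild type, a log2 ratio of -0.99, just short of the 2-fold rule used for counting. This ratio was the 46th lowest among the 1853 genes measured in both, and 2.43% of these genes were 2-fold lower or more. After median centring it was -1.10, past 2-fold, and under spike-in scaling -0.51. In line 75-IV ATG8F had a log2 ratio of 0.11 to wild type, which was -0.06 under spike-in scaling. All its signals were at least 21.0 times the floor. With 1 array per group, the scatter between repeat arrays at that level could not be measured.

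ATG8E had a signal of 1707.3 in ppi1, 857.6 in line 75-IV and 1732.6 in wild type. Here line 75-IV was the low array, and ppi1 differed from wild type by a log2 ratio of only -0.02, which was 0.05 after quantile normalization, 0.11 after loess on level and 0.46 under spike-in scaling. The line 75-IV signal was 2.02-fold lower than that of wild type, a log2 ratio of -1.01, the 8th lowest of 1859 genes. Only 0.430% of those genes were at least 2-fold lower. After quantile normalization the ratio was -0.95 and after loess -0.97, both just short of 2-fold. The ATG8E probe set carries the suffix _s_at, which marks probes that may also match other transcripts, so it may read more than ATG8E. The other 5 members had probe sets with no such suffix.

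**Figure D1:**
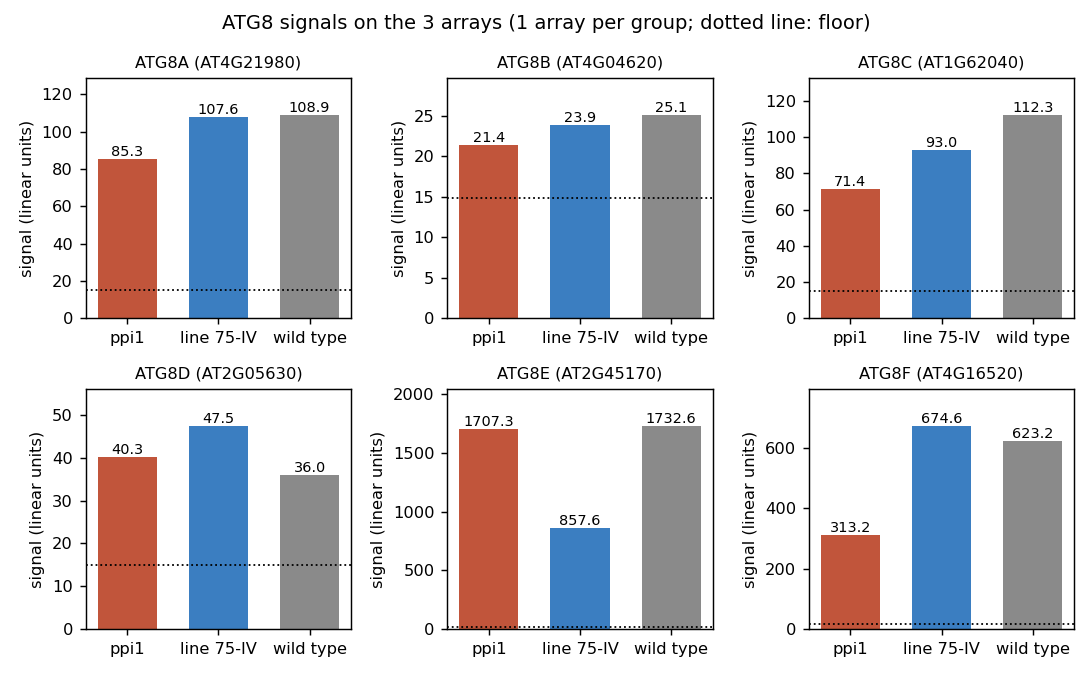
Signal (linear units, axes from 0, a scale of its own for each gene) of the 6 ATG8 genes in ppi1, line 75-IV and wild type. Each bar is 1 array and the dotted line is the floor of 14.9. ATG8F is low in ppi1 (313.2) and ATG8E is low in line 75-IV (857.6), while the other 4 genes differ by at most 1.57-fold between arrays.

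ATG8C had a signal of 71.4 in ppi1, 93.0 in line 75-IV and 112.3 in wild type. Both mutants were below wild type, and ppi1 was the lower of them. Its log2 ratio to wild type was -0.65 in ppi1, 1.57-fold lower and the 128th lowest of 1853, and -0.27 in line 75-IV. Under spike-in scaling the order of the mutants turned, with -0.17 in ppi1 and -0.45 in line 75-IV.

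ATG8A had a signal of 85.3 in ppi1, 107.6 in line 75-IV and 108.9 in wild type. The ppi1 array was low, and the line 75-IV and wild-type arrays were almost equal. The log2 ratios to wild type were -0.35 in ppi1 and -0.02 in line 75-IV, and the first was 0.13 under spike-in scaling.

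ATG8B had the signals nearest to the floor, 21.4 in ppi1, 23.9 in line 75-IV and 25.1 in wild type, at most 1.69 times the floor. Its log2 ratios to wild type were -0.23 in ppi1 (0.25 under spike-in scaling) and -0.07 in line 75-IV. At this level the differences are small beside the scatter of all genes seen in the plot of ratios against level.

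ATG8D had a signal of 40.3 in ppi1, 47.5 in line 75-IV and 36.0 in wild type. It was the only one of the 6 with its lowest signal in wild type. The log2 ratios to wild type were 0.16 in ppi1, which was -0.04 after loess and 0.00 after quantile normalization, and 0.40 in line 75-IV, 1.32-fold higher.

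How the family differed with the Toc33 gene disrupted was read from ppi1 and wild type. ATG8A, ATG8B, ATG8C, ATG8E and ATG8F were lower and ATG8D was higher in ppi1, 5 of 6 lower with a median log2 ratio of -0.29. Of all 1853 genes, 41.1% were lower and the median was 0.11, so relative to that median ATG8F stood at -1.10 and the family median at -0.40. None of the 6 was at least 2-fold lower (2.43% of all genes) or at least 2-fold higher (4.37%), and 2 of 6, ATG8C and ATG8F, were at least 1.5-fold lower, against 8.53% of all genes. No member was at least 1.5-fold higher, against 16.8% of all genes. These directions depended on the scaling. The spike-in controls differed by a mean log2 ratio of -0.48 between ppi1 and wild type. Under spike-in scaling only ATG8C and ATG8F were lower in ppi1 and the median turned to 0.19, with ATG8F at -0.51. That scaling raised the ratios of all genes in this comparison alike, so the turn is not particular to the family. Of 1865 genes measured then, 366 were at least 2-fold higher in ppi1 and 11 at least 2-fold lower. After quantile normalization 4 of 6 were lower.

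Of 10 genes listed as markers of green tissue, 3 had a probe set of their own, and all 3 had lower signals in ppi1 than in wild type, as had 41.1% of all genes. PSAN (photosystem I) had a log2 ratio of -1.21, PRK, the phosphoribulokinase of the Calvin cycle, -0.74, and SBPASE, another enzyme of that cycle, -0.42 (0.06 under spike-in scaling, where PSAN and PRK were still lower, at -0.72 and -0.26). Their summed signal was 3432.7 in ppi1, 5829.1 in line 75-IV and 6545.9 in wild type. The 1 of 7 root markers with a probe set, the beta-glucosidase gene BGLU21, had 265.4 in ppi1, 845.1 in line 75-IV and 482.9 in wild type, and none of 8 seed reserve genes had one. All 4 of these markers were above the floor on each array. In whole seedlings, fewer cells of a type and less RNA per cell cannot be told apart, and the part of tissue make-up in the ATG8 ratios was not tested.

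For the insertion labelled as Toc75, line 75-IV was set against wild type. ATG8A, ATG8B, ATG8C and ATG8E were lower and ATG8D and ATG8F were higher in line 75-IV, 4 of 6 lower with a median log2 ratio of -0.04. This was close to all genes, of which 43.5% were lower with a median of 0.05. ATG8E was the 1 member at least 2-fold lower (0.430% of all genes), none was at least 2-fold higher (1.45% of all genes), and apart from it the ratios ran from -0.27 for ATG8C to 0.40 for ATG8D. Under spike-in scaling 5 of 6 were lower, with ATG8F at -0.06 and ATG8E at -1.19. Since both comparisons use the same wild-type array, the lower signals of ATG8A, ATG8B and ATG8C in both mutants share its error.

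**Figure D2:**
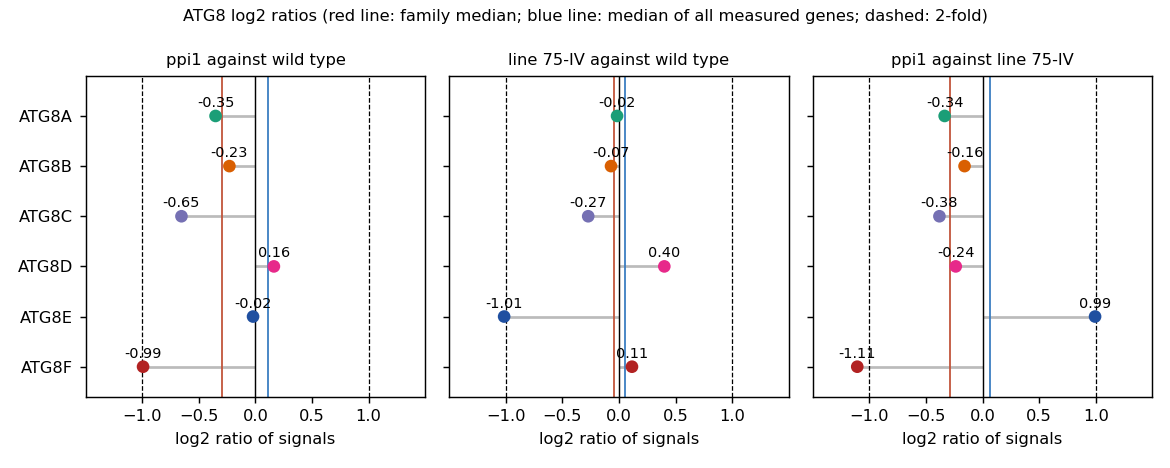
Log2 ratio of signals for each ATG8 gene in the 3 comparisons, 1 array per group. The comparisons share these arrays, so their ratios are not separate results. Each point is 1 gene, the red line is the family's median, the blue line the median of all measured genes, and dashed lines mark 2-fold. ATG8F stands out on the lower side in both comparisons with ppi1 on top (-0.99 and -1.11), and ATG8E is the lowest in line 75-IV against wild type (-1.01) and the highest in ppi1 against line 75-IV (0.99).

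The mutants were also set against each other, which leaves out the wild-type array. The same ppi1 and line 75-IV arrays served in the comparisons with wild type, so these ratios are no separate result. ATG8F was lower in ppi1 than in line 75-IV by 2.15-fold, a log2 ratio of -1.11, and ATG8E was higher by 1.99-fold, a log2 ratio of 0.99. Under spike-in scaling ATG8F stood at -0.45, no longer 2-fold lower, and ATG8E at 1.65, past 2-fold. The other 4 members lay between -0.38 for ATG8C and -0.16 for ATG8B, all lower in ppi1, as were 43.9% of all genes. Under spike-in scaling all 4 were higher (0.28 to 0.50), a shift that all genes shared. Of 1827 genes measured then, 478 were at least 2-fold higher in ppi1 and 18 at least 2-fold lower. Of 1885 genes, 3.55% were at least 2-fold lower in ppi1 and 2.76% at least 2-fold higher. By rank, ATG8F was the 55th lowest and ATG8E the 55th highest. The family's median was -0.29, beside 0.07 for all genes, both as deposited. Under spike-in scaling the family's median was 0.37. That scaling shifts the ratios of all genes alike, and its controls differed here by a mean log2 ratio of -0.66. The 0.07 is therefore not a value to set beside 0.37.

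A factor that scales a whole array cancels in the difference between the log2 ratios of 2 genes. The ratio of ATG8E minus that of ATG8F was 0.97 for ppi1 against wild type, -1.13 for line 75-IV against wild type and 2.10 for ppi1 against line 75-IV. Relative to ATG8F, ATG8E was thus 1.96-fold higher in ppi1 and 2.19-fold lower in line 75-IV than in wild type, and 4.29-fold higher in ppi1 than in line 75-IV. Such a difference shows only that the genes differed relative to each other, not which of them changed. These genes were singled out after their values were seen.

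**Figure D3:**
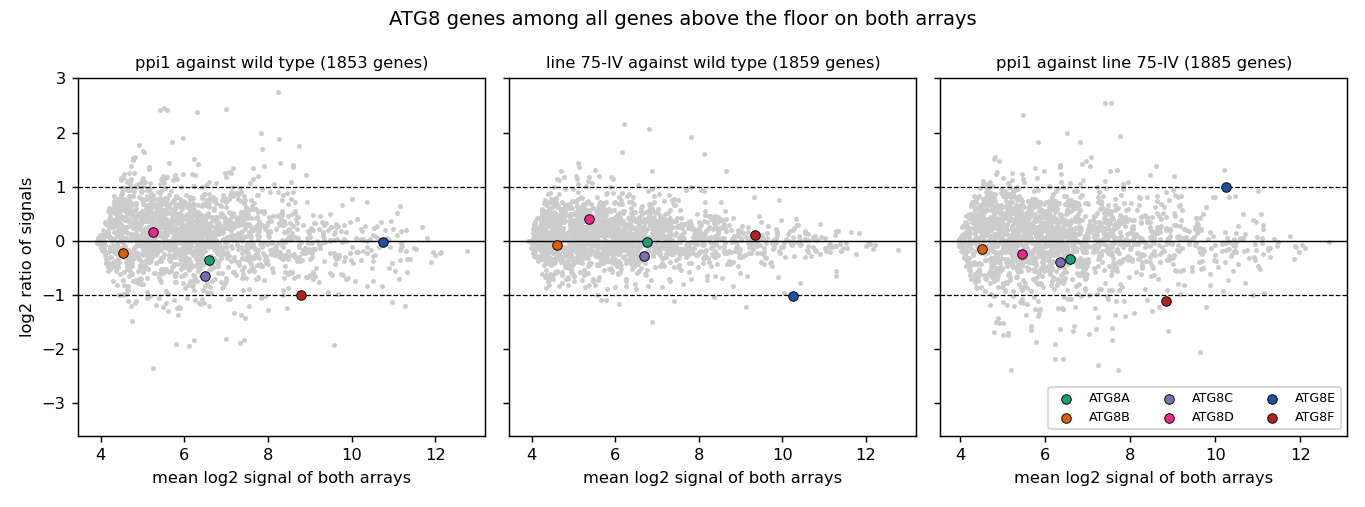
Log2 ratio of signals against the mean log2 signal of both arrays for all measured genes (grey, 1853, 1859 and 1885 genes) with the 6 ATG8 genes in colour. Dashed lines mark 2-fold. Grey points spread most at low signals, where ATG8B and ATG8D lie, and ATG8E (-1.01 in line 75-IV) and ATG8F (-0.99 in ppi1) stand near the lower edge of genes with similar signals.

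Among bright genes the same 2 members were far from the centre. Of 911 genes with at least 4 times the floor in both line 75-IV and wild type, a limit chosen after seeing the data, ATG8E had the 5th lowest ratio, and 0.549% were at least 2-fold lower. Of 896 such genes for ppi1 and wild type, ATG8F had the 20th lowest ratio, and 2.12% were at least 2-fold lower.

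The genes that act with ATG8 were thinly covered. Of 35 genes listed for the autophagy machinery, 3 had a probe set of their own. ATG4A (AT2G44140), a protease that trims ATG8 and frees it from membranes, had a signal of 69.8 in ppi1, 47.4 in line 75-IV and 44.3 in wild type. It was high in ppi1, with a log2 ratio of 0.66 to wild type, 1.58-fold higher, and 0.10 in line 75-IV, which was -0.08 under spike-in scaling. VPS38 (AT2G32760), a subunit of the lipid kinase complex, had 66.2, 70.9 and 67.9 in the same order, nearly level over the arrays as deposited, with a log2 ratio of ppi1 to wild type of -0.04, and 0.45 under spike-in scaling. ATG1C (AT2G37840), a kinase that starts autophagy, was below the floor on all 3 arrays, with 1.3 as its highest signal.

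Of 8 vacuolar proteases, 4 had a probe set and 2 were above the floor on all arrays. GAMMA-VPE, a vacuolar processing enzyme that matures other proteases, had 256.7 in ppi1, 322.6 in line 75-IV and 307.3 in wild type, log2 ratios to wild type of -0.26 in ppi1 and 0.07 in line 75-IV, both of opposite sign under spike-in scaling (0.22 and -0.11). The cathepsin B-like gene AT4G01610 had 199.3, 179.3 and 150.6 in the same order, highest in ppi1 and with ratios of 0.40 and 0.25. ALPHA-VPE was below the floor on every array, and BETA-VPE was above it in ppi1 only, at 15.4.

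Of 10 starvation and senescence genes, 1 had a probe set. SAG29, a sugar transporter of the SWEET family that is induced in senescing leaves, had 84.4 in ppi1, 54.8 in line 75-IV and 36.2 in wild type. Both mutants were above wild type, with log2 ratios of 1.22 in ppi1, 2.33-fold higher, and 0.60 in line 75-IV. None of the 10 ubiquitin and ubiquitin-like genes had a probe set of its own. With so few genes, no list served as a contrast to the ATG8 family.

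Genes with a pattern like that of ATG8F, the member with the widest range, were sought among the same 1796 genes. Likeness was the Euclidean distance between log2 signals centred on each gene's mean over the 3 arrays. The nearest was AT5G46900 (distance 0.02), with 230.5 in ppi1, 492.8 in line 75-IV and 462.9 in wild type. AT4G27700 (0.05) and THIC (0.06), a plastid enzyme of thiamine synthesis, followed. Within a distance of 0.25 lay 48 genes for ATG8F and 12 for ATG8E, against 358 for ATG8A, whose arrays differed little. Nearest to ATG8E were AT2G18670, CCL and AT5G11850, at 0.14 to 0.17, and CCL had 1868.4 in ppi1, 1049.7 in line 75-IV and 1803.6 in wild type. The search around ATG8E was added after its values were seen, and 3 arrays give only a coarse measure of likeness.

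**Figure D4:**
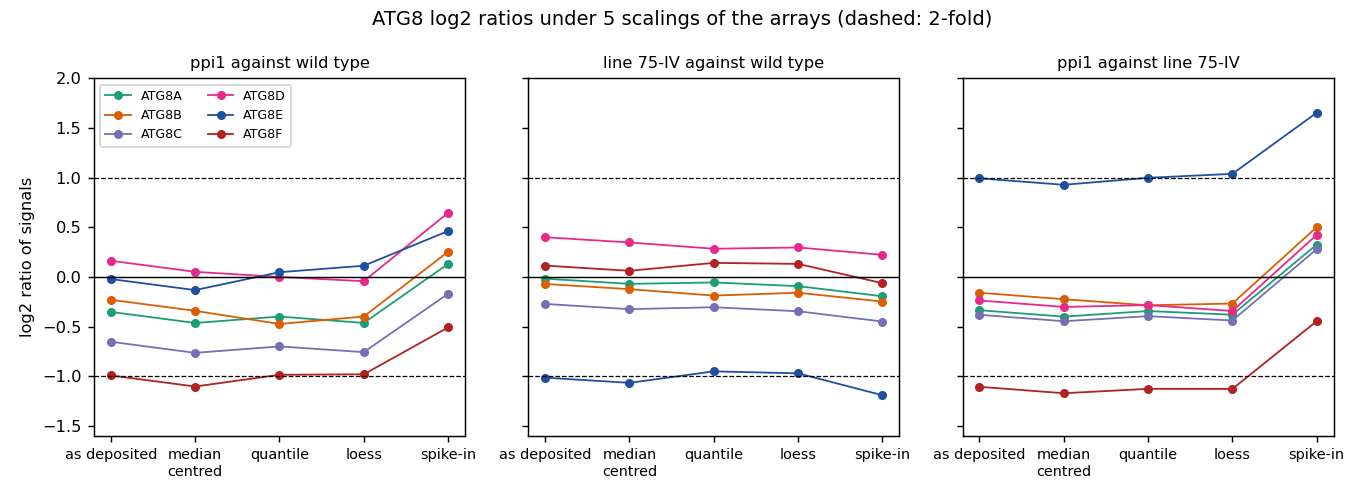
Log2 ratio of signals of the 6 ATG8 genes under 5 scalings of the arrays, in the 3 comparisons. Lines join the values of 1 gene and dashed lines mark 2-fold. Under the first 4 scalings ATG8F lies between -1.10 and -0.98 in ppi1 against wild type, and spike-in scaling raises all ratios with ppi1 on top (ATG8F to -0.51 and -0.45) and lowers those of line 75-IV against wild type (ATG8E to -1.19).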

How the data were processed

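Per the labels' protocols, total RNA that had passed a Bioanalyzer check was copied into cDNA with oligo-dT primers and then into cRNA carrying biotin. The deposited values are signals, 1 per probe set and array, on a linear scale. How they were made and scaled was not given in the sources used here. Means trimmed by 2% differed by less than 2%, as in arrays already scaled to a common mean, so the signals were used as deposited. A common scale hides any difference in total mRNA. The 50 controls entered no gene result. The platform annotation names 1 gene for 3794 probe sets, several for 70 and none for 4433, and gene identifiers linked these names to RefSeq loci. No coordinates are printed, as no build was named. A gene counted as measured where it exceeded the floor in both groups compared, and its probe sets were averaged as log2 ratios. These were computed in Python 3.11.15 with numpy 2.4.6 and pandas 2.3.3, loess (span 0.4) with statsmodels 0.14.6. The code was tested on simulated arrays, with differences larger than those of the ATG8 genes, planted in genes at least 4 times the floor. That test does not bear on differences of the size seen here, nor on the scatter between real arrays.

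Named were all members with a probe set, up to 3 measured genes per list with the largest ratios, and the 3 genes most like the member with the widest range. ATG1C, ALPHA-VPE and BETA-VPE, not measured, were named after their values were seen. The members and lists (88 entries in 7 lists) were chosen with earlier results of these data known. Alternatives were other scalings, floors, probe set rules and thresholds. With 1 array per group, the number of arrays limits the precision.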

Additional observations from a re-analysis of the deposited data

How the results depend on the processing

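The median log2 ratio of the measured members kept its sign under every alternative except spike-in scaling, which turned it to 0.19 for ppi1 against wild type and 0.37 for ppi1 against line 75-IV. Its controls differed by mean log2 ratios of -0.48 and -0.66 there, and all genes shift alike. For line 75-IV against wild type the family's median was -0.04, and -0.02 to -0.22 over the alternatives, the last under spike-in scaling. With the floor at the 60th percentile, which left 4 members, the median of ppi1 against wild type was -0.50 in place of -0.29. The ratio of ATG8E minus that of ATG8F for ppi1 against wild type was 1.03 after quantile normalization and 1.09 after loess. Members at least 2-fold lower in ppi1 than in wild type numbered 0, but 1 after median centring and 2 at 1.5-fold. Among all 1853 genes the counts were 45, 64 and 158. Members lower in line 75-IV than in wild type numbered 1, but 0 after quantile normalization, after loess and at 3-fold. The count was also 0 with probe sets without a suffix, which drop ATG8E. Of all genes, 8 of 1859 were lower as deposited, 9 of 1902 after quantile normalization and 8 of 1859 after loess. At 3-fold 0 of 1859 were lower, and 5 of 1614 with probe sets without a suffix. Against line 75-IV, 0 members were at least 2-fold higher in ppi1, but 1 after loess, under spike-in scaling and at 1.5-fold, and 1 was lower, but 0 under spike-in scaling and at 3-fold. The cause of changes near 2-fold was not tested.

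Counts of all genes at least 2-fold apart were 126 for ppi1 and 35 for line 75-IV against wild type and 119 between the mutants. They were 314, 119 and 269 with the floor at the 20th percentile, 58, 16 and 62 at the 60th, 959, 671 and 902 with no floor, 43, 11 and 49 for signals of at least 4 times the floor, 470, 219 and 461 at 1.5-fold, and 23, 5 and 27 at 3-fold. Genes higher and lower in ppi1 than in wild type numbered 81 and 45, but with median centring 59 and 64, with quantile normalization 61 and 58, with loess 50 and 62, and with spike-in scaling 366 and 11. In line 75-IV they numbered 27 and 8, but 15 and 20 under spike-in scaling. Between the mutants they numbered 52 and 67, but 38 and 77 after loess and 478 and 18 under spike-in scaling. Without rescaling, this balance also turned with the floor at the 20th percentile (156 and 113), with no floor (507 and 395) and at 1.5-fold (270 and 191). No paired analysis was possible because each group had 1 array. With the floor at the 60th percentile ATG8B was not measured, nor ATG8D in the comparisons with wild type.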

Other observations

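Genes next to the ATG8 genes in the RefSeq order of protein-coding genes were looked up on the arrays after the ATG8 values were seen. Those above the floor on each array are given here. AT2G45180, which follows ATG8E, had 2 probe sets, with the suffixes _r_at and _s_at in this order. One had signals of 3424.1 in ppi1, 3875.9 in line 75-IV and 4296.7 in wild type, and the other 3882.6, 4046.1 and 4115.6. Their log2 ratios of line 75-IV to wild type were -0.15 and -0.02, where ATG8E had -1.01. PRXR1, a class III peroxidase gene near ATG8A, had 903.4 in ppi1, 1269.6 in line 75-IV and 747.8 in wild type. Its probe set also carries the suffix _s_at. The log2 ratio of line 75-IV to wild type was 0.76 for PRXR1, where ATG8A had -0.02. Near ATG8C, AT1G62020 had 96.8 in ppi1, 142.5 in line 75-IV and 126.2 in wild type, a log2 ratio of -0.38 for ppi1 to wild type, where ATG8C had -0.65. Near ATG8F, AT4G16540 had 22.1 in ppi1, 26.1 in line 75-IV and 18.1 in wild type, all close to the floor. Its log2 ratio of ppi1 to wild type was 0.29, where ATG8F had -0.99.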
